A study of Homo sapiens with 22 samples.

Results

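The antiproliferative and quiescence genes BTG1, BTG2, TOB1, PNRC1, CCNG2, CDKN1A, CDKN1B, CDKN1C and KLF6 were described in 11 human neuroblastoma cell lines in hypoxia and in normoxia. The members were every probeset (the set of probes that reads a transcript) annotated to 1 of these 9 genes and to no other gene. This gave 23 of 54675 probesets, which read 8 of the 9 genes: 5 each for CCNG2, CDKN1C and KLF6, 3 for BTG1, 2 for TOB1, and 1 each for PNRC1, CDKN1A and CDKN1B. No probeset was annotated to BTG2 alone, so BTG2 has no value here.

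Gene expression was measured on 22 Affymetrix arrays, 1 for each line in hypoxia (1% O2) and 1 in normoxia (20% O2), after 18 hours. GI-LI-N, ACN, SK-N-BE2(C), IMR-32, SK-N-F1, LAN-1, SK-N-SH and GI-ME-N came from a cell line collection, and SHEP-2 and both states of SHEP21N from a laboratory. SHEP21N is 1 line in which MYCN expression is regulated by tetracycline. It was grown with tetracycline and is labelled as without MYCN overexpression (MYCN off below), or grown without the drug and labelled as with overexpression (MYCN on). No allele or agent other than these is given in the labels, and all cells were grown in supplemented RPMI. No line has replicate arrays in a condition, so the spread between lines is the only error. The 3 SHEP lines are related, and SK-N-SH, GI-LI-N and IMR-32 had similar arrays. Intervals and p-values that count 11 lines as independent may therefore be too narrow and too small.

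Signals were on the linear scale of the MAS5 algorithm. To set arrays side by side, the log2 signal was taken relative to the array median, which lay between 69.4 and 133.6 over the 22 arrays, and a difference below is hypoxia minus normoxia within a line on that scale. The array of SHEP21N MYCN on in normoxia stood apart in RNA quality, with 3′/5′ control ratios of 67.3 for GAPDH and 94.0 for ACTB, against medians of 1.12 and 1.61 over all arrays. One other array had a ratio above 3, that of SHEP21N MYCN off in normoxia with 5.05 for ACTB. The lowest signal was 3.3 on each SHEP21N array and between 0.0921 and 0.803 on the arrays of the other lines. Whether the SHEP21N arrays were processed apart from the rest was not tested. At the brightest MYCN probeset both arrays labelled MYCN on were dim, with signals of 19 in normoxia and 6.0 in hypoxia. At the next brightest the hypoxic array had 830.2 and the normoxic array 13.7, against 25.3 and 28.7 on the arrays labelled MYCN off. The label was therefore not borne out by MYCN on the normoxic array. Of 10 adrenergic neuroblast markers, between 6 and 9 lay above 10 times the array median in GI-LI-N, SK-N-BE2(C), IMR-32, SK-N-F1, LAN-1 and SK-N-SH, and between 0 and 2 in the other 5 lines. The same count for 12 substrate-adherent mesenchymal markers was between 3 and 7 in the first lines, with LAN-1 at 7, and between 7 and 12 in the others, with ACN at 7, so these markers did not separate them. The arrays of SK-N-SH, GI-LI-N and IMR-32 also resembled each other, and at the brightest MYCN probeset each was bright. Its signals in normoxia and hypoxia were 33504 and 35223 in SK-N-SH, 43593 and 44726 in GI-LI-N, and 38791 and 44544 in IMR-32. Whether each of these arrays is of the line on its label was not tested.

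These genes hold cells back from division by different routes. CDKN1A (p21), CDKN1B (p27) and CDKN1C (p57) bind and inhibit cyclin-dependent kinases. BTG1, BTG2 and TOB1 belong to a family whose proteins bring the CCR4-NOT deadenylase to messenger RNAs and so shorten their poly(A) tails. CCNG2 encodes cyclin G2, an unusual cyclin that rises in cells leaving the cycle. PNRC1 encodes a small coregulator of nuclear receptors that also binds decapping proteins, and KLF6 a zinc finger factor that can activate CDKN1A. Several of them are known targets of FOXO factors, p53 or oxygen-dependent factors in other cells.

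The sequences just upstream of the annotated starts of PNRC1, BTG1, CCNG2 and KLF6 are shown, as these are the 4 members with the largest mean differences at their brightest probeset among those with a window. They are RefSeq sequences of build GRCh38.p14, 250 bases each, 5′ to 3′ on the gene's strand. They lie at chr6:89080501-89080750 on the plus strand for PNRC1, chr12:92145847-92146096 on the minus strand for BTG1, chr4:77156957-77157206 on the plus strand for CCNG2 and chr10:3785210-3785459 on the minus strand for KLF6. Capitals mark ACGTG (the core letters of the hypoxia response element), GTAAACA (the FOXO site) and CCAAT on either strand.
PNRC1: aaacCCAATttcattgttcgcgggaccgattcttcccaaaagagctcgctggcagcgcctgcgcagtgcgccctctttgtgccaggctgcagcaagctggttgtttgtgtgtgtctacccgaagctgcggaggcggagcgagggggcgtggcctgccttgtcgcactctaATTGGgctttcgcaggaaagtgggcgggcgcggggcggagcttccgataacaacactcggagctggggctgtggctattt
BTG1: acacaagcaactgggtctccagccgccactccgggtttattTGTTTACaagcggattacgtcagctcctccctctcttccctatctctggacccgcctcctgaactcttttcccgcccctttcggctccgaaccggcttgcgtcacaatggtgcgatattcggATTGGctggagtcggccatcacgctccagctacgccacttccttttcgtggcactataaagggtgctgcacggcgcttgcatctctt
CCNG2: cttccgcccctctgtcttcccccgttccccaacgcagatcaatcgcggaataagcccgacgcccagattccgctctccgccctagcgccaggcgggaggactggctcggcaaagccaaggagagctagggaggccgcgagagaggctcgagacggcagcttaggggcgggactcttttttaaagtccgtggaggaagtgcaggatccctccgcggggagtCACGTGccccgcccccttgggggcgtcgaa
KLF6: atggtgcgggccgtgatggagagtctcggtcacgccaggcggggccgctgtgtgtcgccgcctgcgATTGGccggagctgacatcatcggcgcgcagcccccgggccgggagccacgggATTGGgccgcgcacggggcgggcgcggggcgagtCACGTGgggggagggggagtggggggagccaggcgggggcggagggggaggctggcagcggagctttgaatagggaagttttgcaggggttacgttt
ACGTG was found in the windows of CCNG2 and KLF6 and in neither of the other windows shown. In both it lay within the E-box CACGTG, which reads as ACGTG on each strand, 30 bases before the start of CCNG2 and 97 bases before that of KLF6. Over 35116 promoter windows of the same length, 18.5% held ACGTG and 6.34% held CACGTG. The FOXO site GTAAACA was found in the BTG1 window, on the minus strand of the gene and 209 bases before the start, and 2.98% of all windows held it. CCAAT was found in the windows of PNRC1, BTG1 and KLF6, and 32.0% of all windows held it. The GC box GGGCGG, held by 42.6% of all windows, was found in all 4, and in none was there the cAMP response element (TGACGTCA, in 1.65% of all windows), the AP-1 site (TGANTCA, in 6.57%) or the serum response motif (CCATATTA, in 0.316%). Of the 9 genes, 8 had a window in the reference table, and of their 9 windows those of CCNG2 and KLF6 alone held ACGTG. A match of letters is a description and says nothing of whether a factor binds there.

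PNRC1 rose in hypoxia. Its probeset 209034_at had signals of 421, 1345 and 3226 (lowest, median and highest of 11 lines) in normoxia and of 1396, 3407 and 5993 in hypoxia. The signal was higher in hypoxia in 11 of 11 lines, although the range of hypoxic signals overlapped that of normoxic signals. The mean log2 difference was 1.30 (SE 0.19, 95% interval 0.89 to 1.71, n = 11 lines), a 2.46-fold higher geometric mean, with an adjusted p of 0.0397 in limma over all 54675 probesets. PNRC1 was the only member probeset called, where 25 of all probesets, or 0.0457%, were called higher. The exact two-sided sign-flip permutation p was 0.000977, the smallest that 11 lines allow.

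The size of the rise varied between lines. LAN-1 went from the lowest normoxic signal of all lines, 421, to 2897, a log2 difference of 2.70. IMR-32, ACN and GI-LI-N had log2 differences of 1.89, 1.64 and 1.57. The smallest differences were those of SHEP-2, 0.77, and GI-ME-N, 0.80. The call was close to its threshold. Without any 1 line other than LAN-1 the adjusted p at the probeset lay between 0.0658 and 0.140, while the difference stayed between 1.16 and 1.35 over all 11 omissions, LAN-1 included (adjusted p = 0.0454 without it). Without the array pair of SHEP21N MYCN on, the difference was 1.30 and the adjusted p 0.0912.

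**Figure D1:**
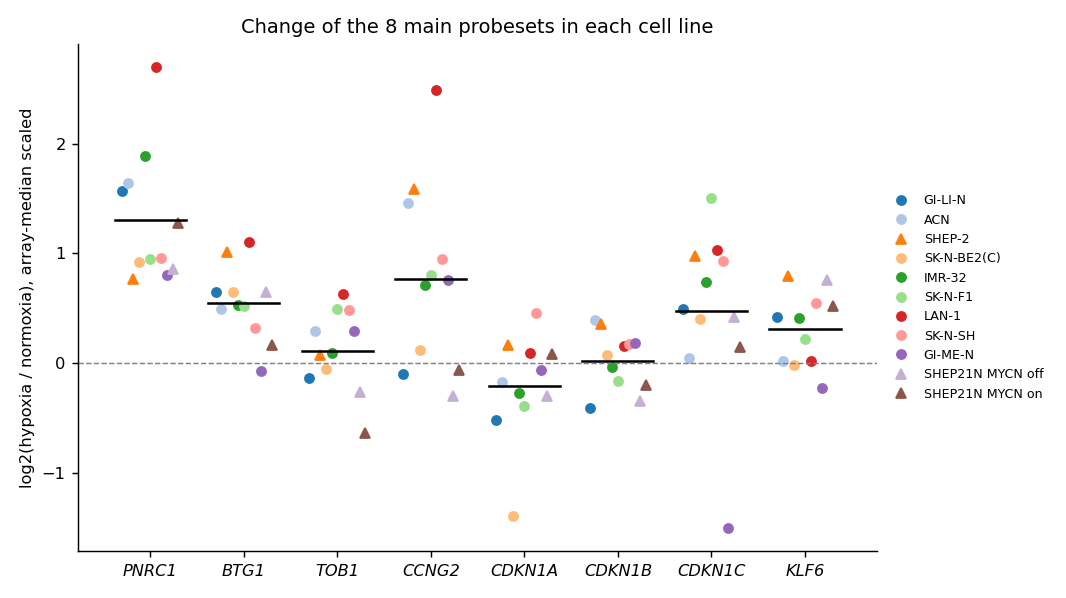
Log2 difference between hypoxia and normoxia, scaled to the array median (y axis), for the brightest probeset of each of the 8 genes (x axis), with 1 point per cell line (triangles, SHEP lines) and a black bar at the mean. All 11 points of PNRC1 lie above 0, between 0.77 and 2.70, while those of CDKN1B lie between -0.41 and 0.40.

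In the table with 1 probeset per gene (the one with the highest mean log2 signal, called the main probeset below), PNRC1 ranked 13 of 19775 genes by p and 81 by size of the difference, with an adjusted p of 0.0190. It was the only member gene called. Over all genes 29, or 0.147%, were called higher and 3, or 0.0152%, lower. Here the call was lost without GI-LI-N (adjusted p = 0.0713), ACN (0.0581) or IMR-32 (0.0529), and kept on leaving out any other single line. It was also lost with the 3 SHEP lines averaged into 1 (0.0688), with the similar lines SK-N-SH, GI-LI-N and IMR-32 taken as 1 line (0.124), and without both SHEP21N lines (0.0698). The difference was 1.38, 1.26 and 1.35 in these fits.

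BTG1, known for keeping T cells at rest, had a difference of similar sign in nearly all lines but was not called. Its main probeset 200921_s_at had signals of 3000.5, 4183 and 8262 (lowest, median and highest) in normoxia and of 3364, 6419 and 12968 in hypoxia, and the ranges overlapped. The mean log2 difference was 0.55 (SE 0.13, 95% interval 0.26 to 0.83) with an adjusted p of 0.333, and the scaled signal was higher in hypoxia in 10 of 11 lines. The second probeset, 200920_s_at, gave 0.55 (SE 0.14, adjusted p = 0.366), again with 10 lines higher. GI-ME-N was the line with a negative value at both, -0.07 and -0.18, and LAN-1 had the highest, 1.10 and 1.15. SHEP21N MYCN on was at 0.17 and 0.15, and as deposited its signals were a little lower in hypoxia than in normoxia, 3364 against 3481 at the main probeset. The exact sign-flip permutation p, unadjusted and two-sided, was 0.00195 for the main probeset and 0.00293 for the second.

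In the gene table the adjusted p of BTG1 was 0.126. It fell to 0.0466 with signals below 50 set to 50, to 0.0424 over probesets with a mean signal of at least 100, and to 0.00704 with an intensity trend and robust variances together. The difference was 0.55 in each of these fits, which differ in how dim probesets enter. BTG1 is on the hypoxia signature that the study itself chose on these arrays, so its direction is no independent evidence. The third BTG1 probeset, 1559975_at, was dim: 18 of 22 arrays were below the array median, and its log2 differences ran from -1.82 in ACN to 4.15 in SHEP21N MYCN on. The latter began at a normoxic signal of 3.3, the lowest on that array.

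**Figure D2:**
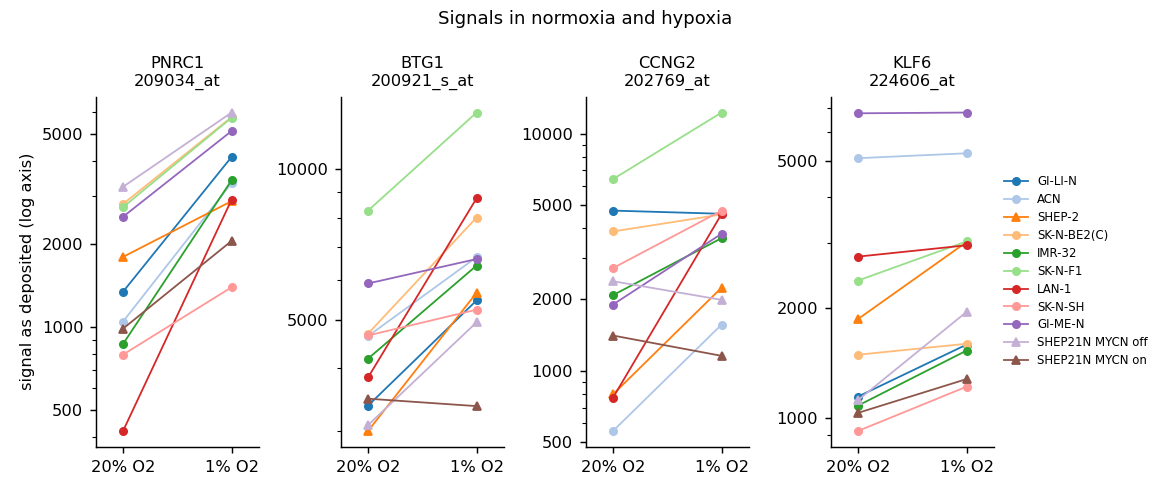
Signals as deposited (y axis, log scale) in normoxia (20% O2) and hypoxia (1% O2) for the main probesets of PNRC1, BTG1, CCNG2 and KLF6, with 1 line per cell line. Each PNRC1 line slopes upward, whereas for CCNG2 GI-LI-N and both SHEP21N states slope downward.

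TOB1, the BTG relative first found as a partner of ERBB2, was not called at either probeset, and its probesets ordered the cell lines differently. At the main probeset 202704_at normoxic signals were 931, 2166 and 6410.5 (lowest, median and highest) and hypoxic signals 1163, 2359 and 6200.4, with a mean log2 difference of 0.11 (SE 0.14, adjusted p = 0.860) and 7 lines higher. At 228834_at they were 190.0, 1664 and 20842 in normoxia and 345, 2139 and 22126 in hypoxia, with a difference of 0.41 (SE 0.16, adjusted p = 0.573) and 10 lines higher. ACN was the lowest line at the first and the highest at the second, where it had 20842 and 22126. SHEP21N MYCN on, with the highest normoxic signal at the first, was the lowest at the second. Its log2 differences were -0.64 at the first and 1.08 at the second, and its normoxic array had the high control ratios. Over the 22 arrays the log2 values of both probesets had a Pearson r of -0.66. A level of TOB1 therefore depends on the probeset, and which transcripts each one reads was not tested.

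CCNG2 had the largest differences after PNRC1, in most but not all lines. Its main probeset 202769_at had signals of 557, 2085 and 6432 in normoxia and of 1156, 3783 and 12279 in hypoxia. The mean log2 difference was 0.77 (SE 0.25, 95% interval 0.22 to 1.31) with an adjusted p of 0.486, and 8 of 11 lines were higher. LAN-1 went from 769.8 to 4583 (2.49), SHEP-2 from 796 to 2241 (1.59) and ACN from 557 to 1566 (1.46). GI-LI-N (-0.10) and SHEP21N in both states (-0.30 with MYCN off, -0.07 with MYCN on) were slightly lower in hypoxia.

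The other 4 CCNG2 probesets gave mean differences of 0.73 (202770_s_at), 1.07 (211559_s_at), 0.74 (228081_at) and 1.20 (1555056_at), with adjusted p between 0.344 and 0.575. The unadjusted sign-flip permutation p lay between 0.00293 and 0.0303 over the 5 probesets. The changes by line at 202770_s_at followed those of the main probeset (r of 0.92 over 11 lines), and those of the other 3 did so loosely (r between 0.15 and 0.32). At 211559_s_at the highest difference was that of SHEP21N MYCN on (signals of 18.3 and 126), whose normoxic array had the high control ratios. Without it the mean was 0.88. At 1555056_at, where 15 of 22 arrays were below the array median, SHEP-2 had 4.55. The mean was 0.87 without it and 0.42 with signals below 50 set to 50. The part of RNA quality in these values was not tested.

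CDKN1A and CDKN1B did not pass the test, with differences near 0. CDKN1A (202284_s_at) had signals of 51.9, 1967 and 6242 in normoxia and 21.4, 1652 and 6567 in hypoxia. Its mean log2 difference was -0.21 (SE 0.16, 95% interval -0.56 to 0.14, adjusted p = 0.763), with 4 lines higher. The lowest value, -1.40, came from SK-N-BE2(C), where the probeset was dim, and the highest, 0.45, from SK-N-SH. The mean was -0.091 without SK-N-BE2(C) and -0.099 with signals below 50 set to 50. CDKN1B (209112_at) had signals of 1030.4, 3902 and 9950.2 in normoxia and 1235, 4603 and 10138 in hypoxia. Its difference was 0.02 (SE 0.12, 95% interval -0.24 to 0.27, adjusted p = 0.983), with 6 lines higher, and its sign changed on leaving out ACN, SHEP-2 or GI-ME-N. Both intervals ended below 0.89, where that of PNRC1 began.

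CDKN1C, the imprinted inhibitor, was higher in hypoxia in 10 of 11 lines at its main probeset but was not called. At 213348_at the signals were 20.6, 380.3 and 1189 in normoxia and 8.56, 603 and 1739 in hypoxia. The mean log2 difference was 0.47 (SE 0.23, 95% interval -0.04 to 0.98, adjusted p = 0.635). SK-N-F1 had the highest value, 1.51, and GI-ME-N, at signals of 20.6 and 8.56 where the gene was at the dim end of the array, the lowest, -1.50. Without GI-ME-N the mean was 0.67, and on leaving out other single lines it fell as low as 0.37. The other 4 probesets were at 0.19, 0.88, 0.12 and -0.16, with adjusted p between 0.661 and 0.956. One of these, 219533_at, was below the array median on all 22 arrays. At 216894_x_at, with 0.88, the highest differences were those of SHEP-2 (signals of 9.15 and 107) and SHEP21N MYCN on (31.7 and 251). The normoxic array of SHEP21N MYCN on had the high control ratios. On leaving out 1 line the mean at this probeset fell as low as 0.60.

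KLF6 had small positive differences at all 5 probesets and no call. At the main probeset 224606_at signals were 923, 1488 and 6759.9 in normoxia and 1218, 1946 and 6791 in hypoxia, with a mean log2 difference of 0.31 (SE 0.13, 95% interval 0.03 to 0.60, adjusted p = 0.585) and 9 lines higher. SHEP-2 had the highest value, 0.79, and GI-ME-N, the line with the highest KLF6, the lowest, -0.23. The largest mean, 0.64 at 208961_s_at, rested on SHEP21N MYCN on, where the signal was 8.30 on the normoxic array with the high control ratios and 194 in hypoxia. Without this line the mean was 0.23. The other 3 probesets were at 0.25, 0.23 and 0.55, and the second of these at 0.088 without this line.

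Taken over the 23 probesets, 21 were higher in hypoxia on the mean, and their median log2 difference was 0.55, against -0.02 over all probesets. The median was 0.40 without SHEP21N MYCN on. Of the 8 member genes 7 were higher on the mean, where 44.4% of all genes were. At an unadjusted p under 0.05, 10 of the 23 were higher, where 3.35% of all probesets were, and 7 were higher in at least 10 of 11 lines, where 1.26% of all were. The probesets of a gene are not independent, and CCNG2 alone gave 5 of the 10. The members were chosen with earlier results of these data known, and BTG1 is on the study's signature. These counts are therefore no independent evidence. By line, the number of the 8 main probesets with a higher value in hypoxia ran from 4 in GI-LI-N, GI-ME-N and SHEP21N MYCN off to 8 in SHEP-2, LAN-1 and SK-N-SH. Of all genes 61.4% were higher in SK-N-SH and 55.0% in SHEP-2, the highest shares of the 11 lines, 44.6% in LAN-1, 44.9% in GI-LI-N, 49.4% in SHEP21N MYCN off and 36.3% in GI-ME-N, the lowest, and the part of this shift in the member counts was not tested. The median of the 23 differences was highest in LAN-1, 1.03, and lowest in GI-ME-N, -0.07.

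**Figure D3:**
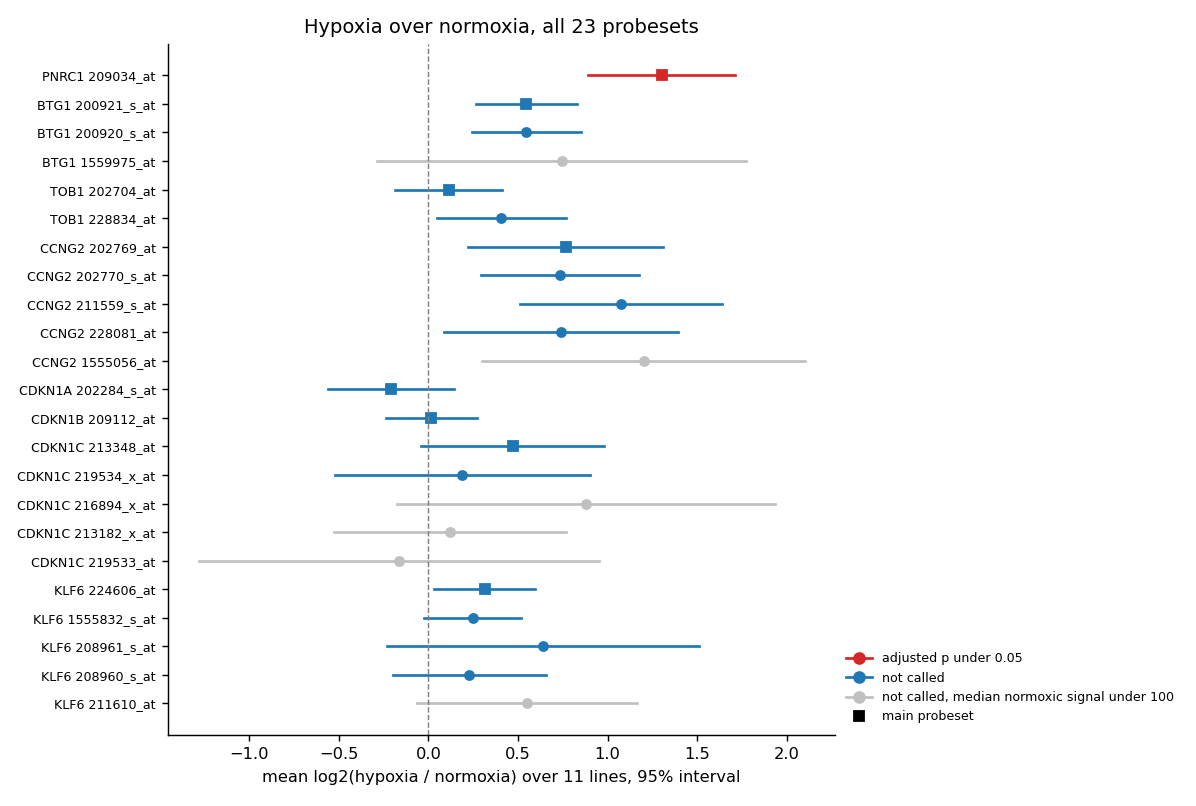
Mean log2 difference between hypoxia and normoxia over 11 cell lines (x axis) with its 95% interval for each of the 23 probesets (y axis), squares marking the main probeset of a gene. PNRC1 at 1.30 (red) is called at an adjusted p under 0.05, and grey marks probesets with a median normoxic signal under 100.

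Whether the hypoxia effect differed between the 3 SHEP lines and the 8 collection lines was tested as an interaction. No member probeset was called, nor was any probeset of the table (0%), by limma. By limma, 2 of the 23 member probesets were at an unadjusted p under 0.05, where 5432 of all 54675 were, a larger share. These were CDKN1C 216894_x_at and KLF6 208961_s_at, where some normoxic SHEP signals were dim. The first had signals of 9.15 in SHEP-2 and 31.7 in SHEP21N MYCN on, and the second 8.30 in SHEP21N MYCN on. The smallest adjusted p among the members was 0.454. For PNRC1 the mean difference was 0.96 in the SHEP lines and 1.43 in the collection lines. For KLF6 224606_at it was 0.69 and 0.17. The CCNG2 probesets differed in direction. The mean was lower in the SHEP lines at 202769_at (0.41 and 0.90), 202770_s_at (0.56 and 0.80) and 228081_at (-0.16 and 1.08). It was higher in them at 211559_s_at (1.42 and 0.94) and 1555056_at (2.13 and 0.85). There some normoxic SHEP signals were dim, 18.3 in SHEP21N MYCN on at the former and 10.8 in SHEP-2 at the latter. At CCNG2 228081_at SHEP-2 alone was lower in hypoxia (-1.38, hypoxic signal 75.7). SHEP21N was higher in both states, 0.28 with MYCN off and 0.61 with MYCN on. The highest collection line was ACN, 3.05 from a normoxic signal of 43.8. Provider and lineage cannot be told apart in this contrast. Both SHEP21N states also come from the arrays with a lowest signal of 3.3, which cannot be told apart from them either.

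At each main probeset the line accounted for a larger share of the variance than oxygen, and for PNRC1 the shares were closest. By the moderated F test 19 of the 23 probesets differed between lines at an adjusted p under 0.05, where 52.4% of all probesets did. The line accounted for 98.6% of the variance of CDKN1A and 98.8% of that of CDKN1B, and oxygen for 0.245% and 0.00453%. For PNRC1 the line accounted for 51.0% and oxygen for 41.0%, for BTG1 76.3% and 17.6%, and for CCNG2 78.7% and 10.1%. In cultured lines a level per array does not tell fewer expressing cells from less RNA per cell.

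CDKN1A ran from 5.87 log2 above the array median in SHEP21N MYCN off, on the mean of both arrays, to below the median in SK-N-BE2(C), a dim level for which no fold is given. It was high in the 3 SHEP lines, with signals between 4988 and 6567, and next in GI-ME-N (2771 and 3124). ACN had 485 and 440.0, and SK-N-BE2(C) 51.9 and 21.4, both below the array median. The gaps below GI-ME-N, below IMR-32 and below ACN exceeded the least difference of 0.82 log2 that the spread between arrays of a line allows at an unadjusted 95% level, and the other 7 gaps between neighbours did not. CDKN1C ran from 3.90 log2 above the array median in GI-LI-N (1189 and 1739) to below it in LAN-1 and GI-ME-N (20.6 and 8.56). Its one gap beyond the least difference of 1.20 lay between these dim lines and is not read as a difference.

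CDKN1B spanned 15.2-fold, with higher levels in the lines with more adrenergic markers. In the 6 lines with 6 or more adrenergic markers its signals lay between 3902 and 10138, and in the other 5 lines between 1030.4 and 3411. The levels of these groups did not overlap for CDKN1B, and they overlapped for the other 7 main probesets. Over all probesets, 4.92% were higher in the first group without overlap. The share that was lower without overlap is not given. The lack of overlap of CDKN1B alone is therefore not read as a result about the members. The gap between LAN-1 and GI-ME-N exceeded the least difference of 0.60, as did that between SHEP21N MYCN on and ACN. The groups were formed from marker genes of these arrays and not from the labels, so no test was made.

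CCNG2 spanned 14.9-fold, from SK-N-F1 (6432 and 12279) to ACN (557 and 1566), with no gap between neighbours beyond 1.28. KLF6 spanned 7.68-fold. GI-ME-N stood above all others, and GI-ME-N, LAN-1, ACN and SK-N-F1 stood above the rest, gaps that exceeded 0.66. TOB1 spanned 7.53-fold at its main probeset, with ACN below the other lines, BTG1 3.91-fold with SK-N-F1 highest and SHEP-2 lowest, and PNRC1 3.41-fold. For BTG1 and PNRC1 no neighbours differed beyond their spread, 0.66 and 0.97. At these probesets SK-N-F1 had the highest mean for BTG1, TOB1, CCNG2 and PNRC1, but it did not stand apart from the next line beyond the least difference for any of them, and at the other TOB1 probeset ACN was highest.

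**Figure D4:**
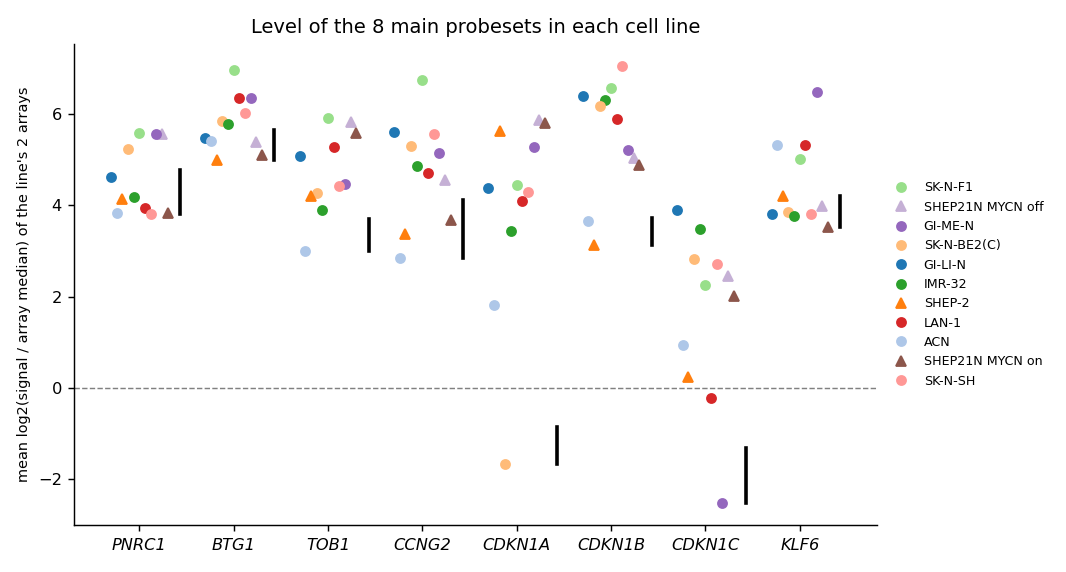
Mean log2 of the signal over the array median on the 2 arrays of each cell line (y axis) for the main probesets of the 8 genes (x axis), with triangles for SHEP lines and a black bar for the least difference of each gene. PNRC1 spans 3.41-fold, and SK-N-BE2(C) lies below the array median (dashed) for CDKN1A, as LAN-1 and GI-ME-N do for CDKN1C.

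In SHEP21N, values with MYCN on and off are set side by side, with 1 array each and no test. PNRC1 was lower on the arrays labelled MYCN on, 988 against 3226 in normoxia and 2054 against 5993 in hypoxia, differences of -1.92 and -1.51 log2. CCNG2 was at 1408 against 2387 and 1156 against 1991, differences of -0.98 and -0.75. For the other 6 genes the differences lay between -0.58 and 0.12. Both normoxic arrays had raised ACTB ratios, 94.0 with MYCN on and 5.05 with MYCN off, whose part was not tested, while the hypoxic arrays had 2.85 and 2.70.

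The genes whose pattern over the 22 arrays was most like that of PNRC1, among 12519 genes with a mean signal of at least 100, were PDK1 (Pearson r 0.80), EGLN3 (0.79) and SFXN3 (0.74). For BTG1 they were INSIG2 (0.88), SPTBN1 (0.84) and LINC01128 (0.84), for TOB1 WDR11, CDK20 and PMS2P8 (0.86 each), and for CCNG2 SAMD8 (0.89), MXD1 (0.88) and AFF4 (0.88). For CDKN1A they were IER5 (0.90), POMP (0.89) and GALNT2 (0.88), for CDKN1B DNAJB5, SYNE2 and ETNK1 (0.97 each), for CDKN1C SYTL4 (0.94), DLL3 (0.89) and CLMN (0.88), and for KLF6 AP3B1 (0.87), IER3 (0.85) and H2AJ (0.85). PDK1 and EGLN3 encode a kinase and a prolyl hydroxylase known to be induced by hypoxia, and both are on the study's signature. The arrays come in pairs from 11 lines, so these correlations mix differences between lines with the response and are descriptions. Among the members, CCNG2 and CDKN1B were most alike (0.79).

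Of the other genes of these pathways, none was called outside the hypoxia reference genes, though some were in other settings. TXNIP (higher), CCNE2 and RRM2 (lower) were called with signals below 50 set to 50, with a mean signal of at least 100, and with an intensity trend and robust variances. The last of these also called TRIAP1 and PCNA (lower), the paired t-test called CCNE2, RRM2 and PCNA, and CCNE2 was called without SHEP21N MYCN on (adjusted p = 0.0356 in limma). The counts and medians of a list include its member genes. In the BTG/TOB family 0 of 5 measured genes were called (median log2 difference -0.05, and -0.12 without the members). BTG3, the next by p, was at -0.25 (adjusted p = 0.369, higher in 1 line). Among CDK inhibitors 0 of 7 were called (median 0.02, and 0.10 without the members), with CDKN3 at -0.19 (adjusted p = 0.662). Among G-type and atypical cyclins 0 of 10 were called (median -0.02), with CCNK at -0.25 (0.448) and CCNH at -0.20 (0.519). By comparison, the median over all 19775 genes was -0.04. In limma, 711 of all genes were higher and 1398 lower at an unadjusted p under 0.05, and of these 3 lists CCNG2 and BTG1 were higher and BTG3 and CCNK lower at that level.

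For the machinery that BTG and PNRC proteins bind, 0 of 14 CCR4-NOT deadenylase genes were called (median -0.02), with CNOT8 at 0.25 (adjusted p = 0.425), PABPC1 at 0.18 (0.481) and CNOT6 at -0.20 (0.484). Among 11 PNRC and decapping genes, 1 was called, PNRC1 itself. DCP2, the decapping enzyme, was at -0.28 (0.339) and LSM1 at -0.23 (0.482), and the median was 0.02. At an unadjusted p under 0.05 by limma, 1 gene of the first list was higher and 0 lower, and 1 of the second was higher (PNRC1) and 1 lower.

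In the KLF family, with 17 genes measured, the median was 0.31 (0.27 without KLF6) and 0 were called. KLF9 was at 0.55 (adjusted p = 0.259), KLF10 at 0.50 (0.279) and KLF11 at 0.51 (0.359), higher in 10, 9 and 9 lines. Of 16 FOXO factors and targets 0 were called (median 0.14). TXNIP, a thioredoxin inhibitor, was at 1.01 (0.120) and higher in 11 lines, though it too is on the study's own signature, BCL6 at 0.76 (0.249) and FOXO6 at 0.63 (0.249). At an unadjusted p under 0.05 by limma, 4 KLF genes and 3 FOXO genes were higher and 0 lower.

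Of 20 genes of p53 and its targets 0 were called (median -0.13), with TRIAP1 at -0.38 (adjusted p = 0.214), TIGAR at -0.47 (0.318) and FAS at -0.46 (0.350). Of 21 immediate early genes, among which KLF6 is often counted, 0 were called (median 0.03), with EGR3 at -0.48 (0.323), DUSP1 at 0.41 (0.481) and JUND at 0.15 (0.542). For 7 neighbours of CDKN1C on its chromosome 0 were called (median 0.04), with CD81 at 0.22 (0.557), TSSC4 at -0.56 (0.610) and SLC67A1 at -0.51 (0.696). Of the p53 genes 1 was higher and 3 lower at an unadjusted p under 0.05 by limma, of the immediate early genes 0 and 1, and of the CDKN1C neighbours 0 and 0.

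For the cell cycle machinery and the turnover of the inhibitors, 0 genes were called in 4 lists. Among 14 G1 cyclins and CDKs the median was -0.18, and CCNE2, a partner of CDK2, was at -0.70 (adjusted p = 0.0924) and higher in 1 of 11 lines, CCNE1 at -0.42 (0.315) and CCNA2 at -0.21 (0.393). Among 20 proliferation markers the median was -0.08, with RRM2 at -0.53 (0.120), PCNA at -0.38 (0.191) and MCM6 at -0.25 (0.431). Among 15 genes of p27 and p21 turnover the median was -0.13, with COPS5 at -0.24 (0.374), DTL at -0.31 (0.434) and CKS1B at -0.21 (0.477), and among 14 of the DREAM and pocket protein complex -0.06, with LIN52 at -0.22 (0.444), LIN9 at -0.57 (0.465) and RBL1 at -0.22 (0.616). In these 4 lists 3, 3, 2 and 2 genes were lower at an unadjusted p under 0.05 and none higher. Of 11 hypoxia reference genes 9 were called higher (median 1.99). All 11 are on the signature that the study chose on these arrays, so this count is no independent evidence.

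**Figure D5:**
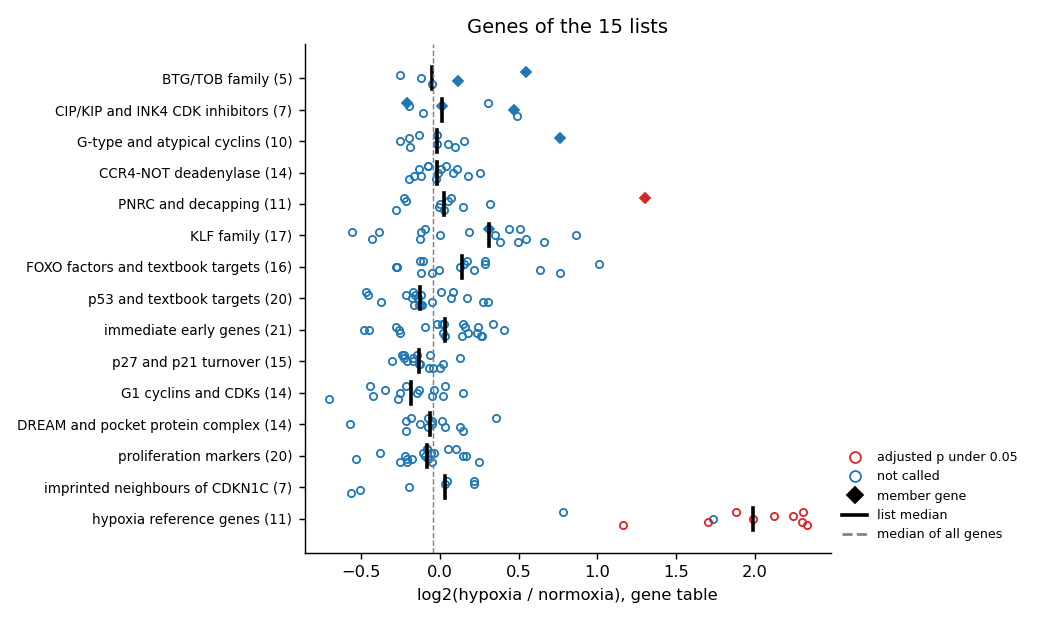
Log2 difference between hypoxia and normoxia of every measured gene (points, diamonds for member genes) of 15 lists (y axis, number measured in brackets), with a black bar at each list's median and a dashed line at the median of all genes, -0.04. PNRC1 and 9 hypoxia reference genes are called (red).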

How the data were processed

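The members and the lists were chosen with earlier results of these data known. RNA of 11 lines in 2 conditions was hybridised to 22 arrays. The intensity values deposited were made by the authors with MAS5 (version not given) and scaled to an average of 500 on a linear scale. For arrays no depth is given, and their number limits the precision. Log2 intensities were centred on the median of each array. The 54675 probesets were named through the platform annotation (41091 with 1 gene, 1801 with several, 11783 with none or controls). Differences between conditions were tested, two-sided, by limma 3.58.1 under R 4.3.3, each line being a block, and adjusted over all probesets or all genes (Benjamini-Hochberg, threshold 0.05), with no filter. Blocking is by cell line, since both arrays of a number are of the same line. Sign-flip tests enumerated 2048 patterns. The scripts were tested on simulated data. Motifs were searched in Python 3.11.15 in the 250 bases before the start, on both strands. Named genes were all members, per list the 3 genes lowest in adjusted p, the 3 most like each member, and MYCN, GAPDH and ACTB. Alternatives were other normalizations, a floor of 50, a mean signal of at least 100, an intensity trend together with robust variances, no block, a paired t-test, a threshold of 0.01, the mean of a gene's probesets, averaged lines and lines left out.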

Additional observations from a re-analysis of the deposited data

How the results depend on the processing

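Of the 23 member probesets, 1 was called, and 4 were called with an intensity trend and robust variances together (PNRC1, 200921_s_at and 200920_s_at of BTG1, and 211559_s_at of CCNG2). None, or 0, was called with no replicate block, at an adjusted p of 0.01, with the 3 SHEP lines averaged, with SK-N-SH, GI-LI-N and IMR-32 averaged, or without both SHEP21N lines, and leaving out 1 line gave 0 to 1. Of the member genes 1 was called, 2 with a floor of 50, with a mean signal of at least 100 or with trend and robust variances (PNRC1 and BTG1), 0 with no block, at 0.01, with either set of lines averaged and without both SHEP21N lines, and 0 to 1 on leaving out 1 line. Of the list genes 10 were called, 16 with the floor, 16 with the filter, 18 with trend and robust variances, 3 with no block, 3 at 0.01, 5 with the SHEP lines averaged, 2 with the other 3 lines averaged and 5 to 12 on leaving out 1 line. The differences that changed sign were not called in any setting where they did: 1559975_at of BTG1 was at -0.074 with the floor. 219533_at of CDKN1C was at 0.098 with the SHEP lines averaged and 0.34 without both SHEP21N lines, and ran from -0.57 to 0.20 on leaving out 1 line, positive without SHEP21N MYCN off. 213182_x_at of CDKN1C was at -0.011 with SK-N-SH, GI-LI-N and IMR-32 averaged and ran from -0.078 (without SK-N-F1) to 0.29. 219534_x_at of CDKN1C ran from -0.021 (without LAN-1) to 0.34, and CDKN1B from -0.022 (without ACN) to 0.058. The cause was not tested. The signs of all other member differences were the same in the alternatives run, and with signals as deposited or quantile normalization no call of a member changed.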
